A study of Mus musculus with 3 samples.

Results

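miR-192, miR-194 and miR-215 are the microRNAs most typical of the gut epithelium. Every row of the deposited miRNA table that named one of these 3 hairpins, whatever the arm, was taken, which gave 6 of 471 rows: the 5p and the 3p arm of each. Each group of the study was 1 small RNA library of mouse colonic mucosa, 3 in all. WT was of the genotype with intact mir-10b (global mir-10b+/+) and was titled healthy. KO was of the genotype without mir-10b in any tissue (global mir-10b-/-) and was titled diabetic. The library called mimic here came from the same knockout genotype after injection of a synthetic miR-10b-5p, and its title calls it a rescue. Strain, age, sex and the number of animals per library are not stated in the labels, nor is a control injection. With 1 library per group, all differences below are between libraries, none has a replicate check, and no p-value is given.

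A miRNA is cut from a folded hairpin as a short duplex. As a rule the strand of 1 arm is loaded into an Argonaute protein and kept, while the strand of the other arm is mostly degraded. The loaded strand finds its target mRNAs chiefly through its seed, bases 2 to 8. Transcription of the miR-192 and miR-194 hairpins is known to be driven by the hepatocyte nuclear factors of gut, liver and kidney epithelium, and in human cells p53 raises all members of the group.

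The mature sequences are shown because the 5p arms hold nearly all of the signal and because miR-192-5p and miR-215-5p share a seed. They are RefSeq sequences (build GRCm38.p6), written 5′ to 3′ with the seed in capitals.
miR-192-5p: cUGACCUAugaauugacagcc
miR-215-5p: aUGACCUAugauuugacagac
miR-194-5p: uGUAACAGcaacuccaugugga
miR-192-3p: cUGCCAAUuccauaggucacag
miR-215-3p: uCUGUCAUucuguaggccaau
miR-194-1-3p: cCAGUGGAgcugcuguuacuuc
miR-194-2-3p: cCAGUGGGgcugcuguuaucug
Counted from 1 at the 5′ end, miR-215-5p differed from miR-192-5p by C1A, A12U and C20A, so 18 of 21 positions were identical, the seed among them. Among the mature mouse sequences of the RefSeq table, no other miRNA had the seed of this pair, and miR-194-5p was alone with its own. Of the 6 rows, 5 had a mature sequence of the same name. The row miR-194-3p carried no copy number, and the 3p arms of both copies differ by A8G, C19U, U20C and C22G, with A8G inside the seed. That row was therefore tied to neither copy.

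The 4 hairpins lie as 2 tandem pairs, each with 1 copy of miR-194 upstream. Mir194-1 (chr1:185313319-185313385) and Mir215 (chr1:185313581-185313692) are on the plus strand of chromosome 1, 195 bases apart, inside an intron of Iars2, the mitochondrial isoleucyl-tRNA synthetase gene, which runs on the other strand. On their own strand an antisense non-coding gene, 2010103J01Rik, spans both, with Mir194-1 in its intron and Mir215 overlapping an exon. Mir194-2 (chr19:6264643-6264728) and Mir192 (chr19:6264844-6264932) are on the plus strand of chromosome 19, 115 bases apart and between genes, 2307 bases past the end of Atg2a, an autophagy gene. Both copies yield the identical miR-194-5p, so its value sums both loci. The hairpins of the seed-sharing pair are printed below with both mature arms in capitals, since the arms behaved differently.
Mir192: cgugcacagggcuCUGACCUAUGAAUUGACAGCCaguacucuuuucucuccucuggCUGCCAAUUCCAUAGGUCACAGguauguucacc
Mir215: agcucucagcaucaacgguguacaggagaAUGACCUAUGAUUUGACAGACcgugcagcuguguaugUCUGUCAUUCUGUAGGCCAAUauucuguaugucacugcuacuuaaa

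Values are normalized reads as the authors deposited them. The column totals were unequal, 4872446 for WT, 8124898 for KO and 8510085 for mimic. Nearly all low values fell on multiples of an estimated step in each library, from which about 4360000, 5830000 and 5460000 miRNA reads were estimated for WT, KO and mimic. The product of the deleted gene, miR-10b-5p, was at 18057 in WT against 14 in KO and 469 in mimic. Muscle miRNAs took 11.8% of WT, 13.1% of KO and 26.4% of mimic. In bulk tissue, fewer cells of a type and less RNA per cell cannot be told apart.

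The 3 hairpins together supplied a large share of each library. Summed, their 6 rows gave 835557 normalized reads for WT, 1347707 for KO and 1690351 for mimic, or 17.1%, 16.6% and 19.9% of the totals. miR-192-5p alone made up between 78.5% (WT) and 80.3% (KO) of that sum. The 3p arms together held 0.171% of the WT total, 0.05% of KO and 0.0826% of mimic. All 6 rows passed the filter on low values, a mean of at least 10 over the 3 libraries, as did 415 of the 471 rows. No member was listed at 0.

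miR-192-5p, the main strand of its hairpin, had 656011 normalized reads in WT, against 1081718 in KO and 1341381 in mimic. It was the most abundant miRNA of WT and ranked 2 in KO and in mimic. As a share of the library it was nearly level, with 13.5% of WT, 13.3% of KO and 15.8% of mimic. miR-194-5p, which represses targets through its own unrelated seed, stood at 85675, 169274 and 165965 in the same order. WT was the low library for this miRNA, while KO and mimic were close to each other. miR-215-5p, the relative of miR-192-5p, had 85529 in WT, a similar 92654 in KO, and 175976 in mimic, so here mimic was the high library. In rank, miR-194-5p went from 14 in WT to 8 in KO and 10 in mimic, and miR-215-5p from 15 to 16 and 8.

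The 3p arms, the strands less often kept, ran the other way in KO. miR-215-3p had 4718 normalized reads in WT, only 1875 in KO and again 3846 in mimic. miR-194-3p was at 1945, 1039 and 1696, and miR-192-3p at 1679, 1147 and 1487. For each of them KO was the low library and mimic lay between KO and WT. In WT miR-215-3p ranked 81 of 471 rows and the other two 3p arms 121 and 125.

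**Figure D1:**
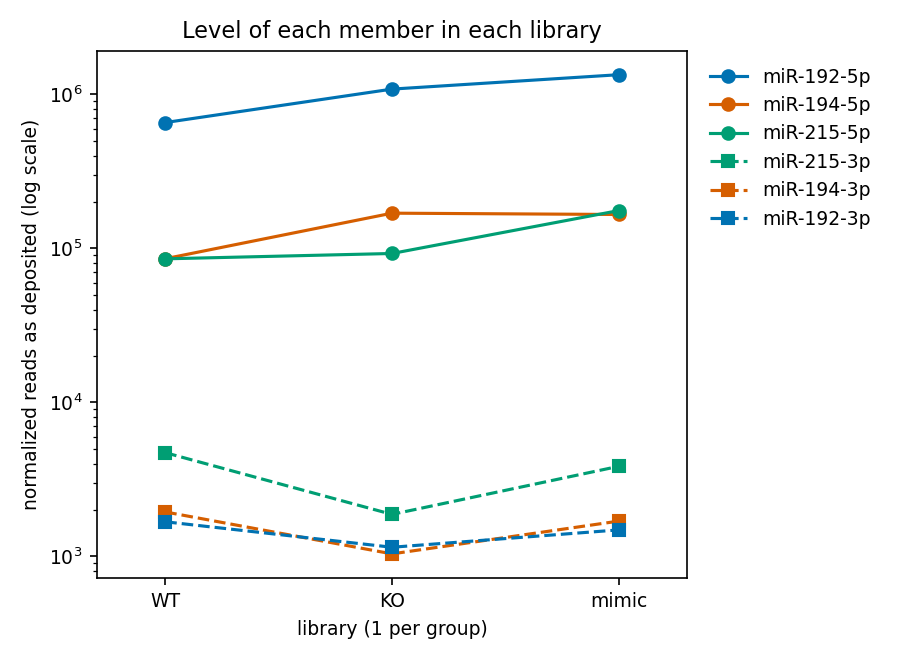
Normalized reads as deposited (log scale) for each of the 6 member rows in WT, KO and mimic, 1 library each; circles with solid lines are 5p arms and squares with dashed lines 3p arms, coloured by hairpin. miR-192-5p is at 656011 in WT and 1341381 in mimic, while each 3p arm is lowest in KO, where miR-215-3p is at 1875 against 4718 in WT.

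KO against WT contrasts the knockout, titled diabetic, with the healthy wild type, so genotype and diabetic state differ together. Log2 ratios were computed with 1 added to each value, and "higher" and "lower" are used of rows that differed 2-fold or more. Of the 6 members, 0 were higher in KO and 1 was lower, against a background of 21.2% of all 415 rows higher and 9.64% lower. The lower one was miR-215-3p, with a log2 ratio of -1.33, a value 2.52-fold lower in KO. miR-194-3p had a log2 ratio of -0.90 and miR-192-3p of -0.55. miR-194-5p, at 0.98, was just short of the limit on the higher side, followed by miR-192-5p at 0.72 and miR-215-5p at 0.12. The members thus split by arm, with all 5p arms above 0 and all 3p arms below it. Their median was -0.22, made of a 5p median of 0.72 and a 3p median of -0.90, while the median over all rows was 0.13 with quartiles of -0.54 and 0.82.

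How the libraries were scaled decided the sign for some 5p arms but for no 3p arm. Scaling each library to the same total moved every KO against WT log2 ratio by -0.74, and median-of-ratios factors moved it by -0.15. With equal totals, miR-192-5p was at -0.02, miR-194-5p at 0.24 and miR-215-5p at -0.62. With median-of-ratios factors they were at 0.57, 0.83 and -0.04. The 3p arms of miR-192, miR-194 and miR-215 were at -1.29, -1.64 and -2.07 with equal totals and at -0.70, -1.06 and -1.48 with median-of-ratios factors. The 3p arms were below 0 under the 3 scalings, and the order of the 6 ratios does not depend on them. Equal totals put 0 members higher and 3 lower, the 3p arms, in a table where 7.23% of rows were then higher and 34.0% lower. Counting error was small beside the 3p ratios. Taking the estimated reads, its 95% exact binomial interval ran from -1.42 to -1.24 for miR-215-3p, from -1.03 to -0.78 for miR-194-3p and from -0.67 to -0.43 for miR-192-3p. These intervals cover counting error only and say nothing about differences between animals or preparations.

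**Figure D2:**
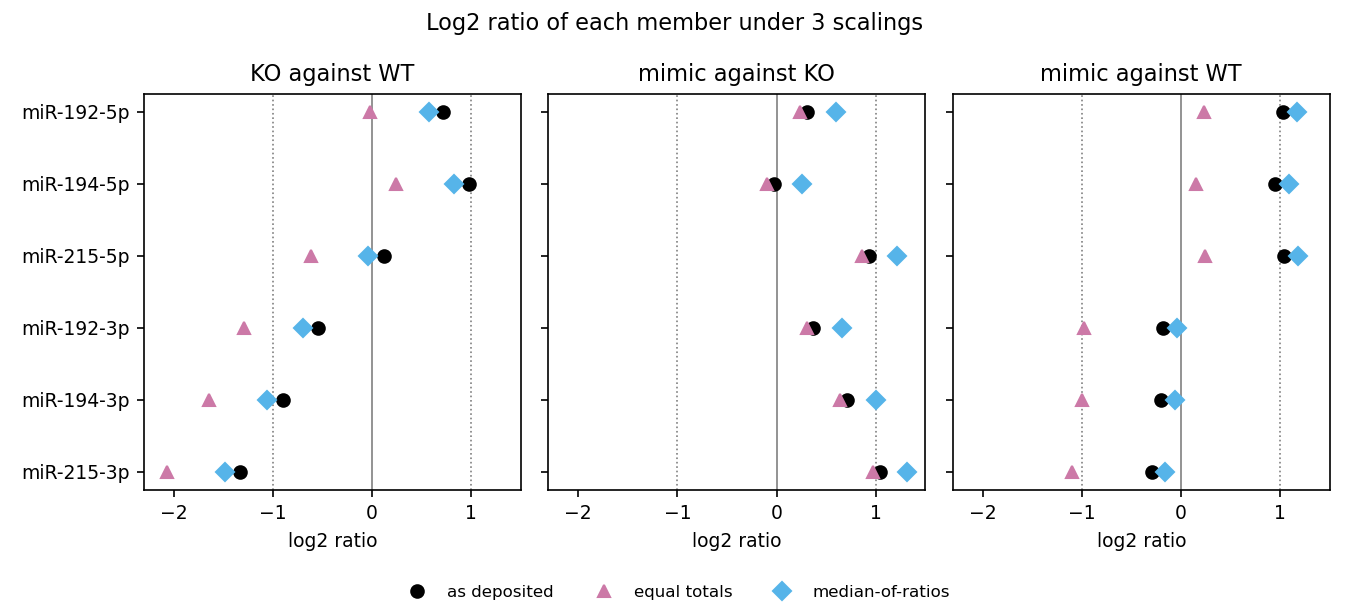
Log2 ratio (x axis) of each member (y axis) in the 3 comparisons, from values as deposited (circles), scaled to equal totals (triangles) and scaled by median-of-ratios factors (diamonds); dotted lines mark the 2-fold limits. In KO against WT all 3p arms stay left of 0, down to -2.07 for miR-215-3p, whereas miR-192-5p moves from 0.72 to -0.02 with equal totals.

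Mimic against KO contrasts a knockout that received the miR-10b-5p mimic with another knockout library. As deposited, 1 of the 6 members was at least 2-fold higher in mimic and 0 were lower, against 13.3% and 28.2% of all rows. The higher one was miR-215-3p, with a log2 ratio of 1.04 (2.05-fold). Its partner arm miR-215-5p followed at 0.93, then miR-194-3p at 0.71, miR-192-3p at 0.37 and miR-192-5p at 0.31. miR-194-5p was at -0.03. Both arms of miR-215 thus had the highest ratios among the members. The median of the 6 was 0.54 and that of all rows -0.31. Of the 415 rows, 87.0% had a lower ratio than miR-215-3p and 84.8% a lower one than miR-215-5p. With median-of-ratios factors 2 members were higher, both arms of miR-215 at 1.32 and 1.21, against 18.6% of all rows higher and 24.1% lower, and miR-194-5p moved to 0.26. With equal totals none reached the limit, and miR-215-3p stood at 0.97. Over the whole table, higher rows made up 32.0% of those past the limit, and 43.5% once median-of-ratios factors were applied.

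Mimic was then set directly beside WT, which places the injected knockout against the healthy wild type. As deposited, 2 members were at least 2-fold higher and 0 were lower, against 19.8% and 25.8% of all rows. The higher ones were miR-215-5p with a log2 ratio of 1.04 and miR-192-5p with 1.03, and miR-194-5p lay just inside the limit at 0.95. The 3p arms were near WT, at -0.29 for miR-215-3p, -0.20 for miR-194-3p and -0.18 for miR-192-3p. The 5p arms were thus nearly alike in this ratio, as were the 3p arms among themselves. Scaling to equal totals moved every ratio by -0.80, which brought the 5p arms to between 0.15 and 0.24 and the 3p arms to between -1.10 and -0.98. Under that scaling 0 members were higher and 2 lower, against 7.23% and 46.7% of rows, and the higher rows made up 13.4% of those apart in place of 43.4%. Median-of-ratios factors gave 3 members higher, the 5p arms, and 0 lower, against 22.9% of rows each way. The comparisons share libraries, so their ratios are not independent of each other.

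In the authors' deposited table of differences, which is on the linear scale and therefore led by abundant miRNAs, miR-192-5p had the third largest excess of KO over WT, 425707 normalized reads. In the authors' deposited table its excess of mimic over KO was 259663, rank 4 of 471. For miR-215-5p the same authors' deposited table gave 7125 for KO minus WT (rank 33) and 83322 for mimic minus KO (rank 6). The miR-194-5p differences in the authors' deposited table were 83599 (rank 8) and -3309 (rank 432).

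Ratios taken inside a library do not depend on the scaling. The 5p arm exceeded the 3p arm of each hairpin in each library, and in KO the gap was wider than in WT for all 3. For miR-192 the 5p arm was 391 times the 3p arm in WT, 943 times in KO and 902 times in mimic. For miR-194 the arm ratio was 44.0 in WT, against 163 in KO and 97.9 in mimic. Its 5p value sums both copies and its 3p row names no copy, so this may not be the ratio of a single hairpin. For miR-215, the least lopsided of the hairpins, it was 18.1, 49.4 and 45.8. Put as the 3p share of both arms, miR-215-3p went from 5.23% in WT to 1.98% in KO and 2.14% in mimic. KO and mimic were thus close to each other for miR-192 and miR-215, with WT apart, and for miR-194 mimic lay between.

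On the log2 scale the arm ratio was higher in KO than in WT by 1.27 (miR-192), 1.89 for the miR-194 arms and 1.45 (miR-215). All 3 of 3 were at least 2-fold, against 31.0% of the 142 hairpins with both arms measured, where the ratio was taken as dominant over other arm. The median shift over those hairpins was 0.24, with quartiles of -0.74 and 1.28. Of those hairpins, 73.9% had a lower shift than miR-192, 77.5% than miR-215 and 84.5% than miR-194, so all 3 lay near or above the upper quartile and none at the extreme. Background hairpins needed a mean of at least 10 for each arm, whereas the fewest estimated reads of a member arm were 745, for miR-194-3p in KO. Counting error may therefore be larger in the background, and its part in that spread was not tested. Among the 71 hairpins whose dominant arm was on average at least 16 times the other, 40.8% passed the same limit. From KO to mimic the shifts were -0.06 for miR-192, -0.11 for miR-215 and -0.73 for miR-194, and 0 of 3 were 2-fold either way, against 16.9% of hairpins higher and 31.7% lower. From WT to mimic they were 1.21, 1.34 and 1.15, again 3 of 3 past the limit against 24.6% of hairpins. The table names no isoforms, so reads shifted by a base or tailed could not be separated.

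**Figure D3:**
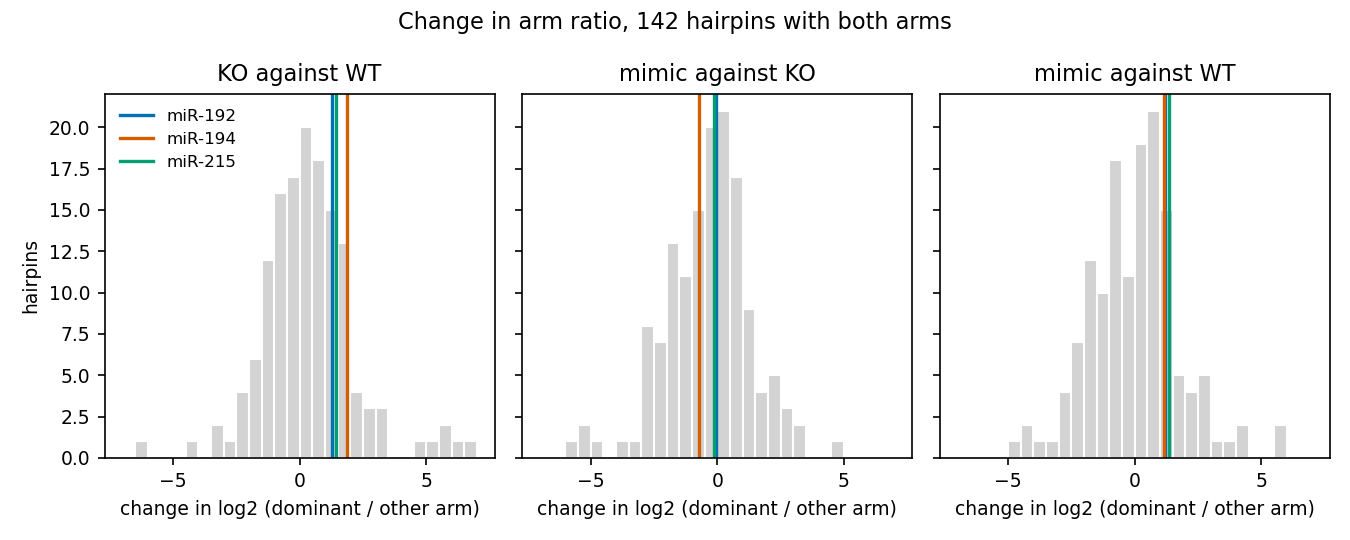
Change in log2 of the dominant over the other arm (x axis) for 142 hairpins (grey bars, number of hairpins) in the 3 comparisons, and the 3 member hairpins as coloured lines. The lines lie right of centre in KO against WT (1.27 to 1.89) and mimic against WT (1.15 to 1.34), but inside the spread of the other hairpins.

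In the ratios between members, KO lay outside the range of WT and mimic, but ratios between other pairs of rows were not computed for comparison. Over all rows, the KO against WT log2 ratios had quartiles of -0.54 and 0.82. miR-192-5p was 7.67 times miR-215-5p in WT, 11.7 times in KO and 7.62 times in mimic. The 3p arms of the same hairpins moved alike, with a miR-192-3p to miR-215-3p ratio of 0.356 in WT against 0.612 in KO and 0.387 in mimic. On the log2 scale the KO shift against WT was 0.61 for the 5p pair and 0.78 for the 3p pair, and the mimic ratio differed from WT by -0.01 and 0.12. Both arms of miR-215 were thus low relative to those of miR-192 in KO, and WT and mimic nearly coincided.

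miR-194-5p and miR-215-5p, of which the chromosome 1 locus encodes both, were level in WT at a ratio of 1.00. The ratio was 1.83 in KO and 0.943 in mimic. miR-192-5p was 7.66 times miR-194-5p in WT, 6.39 times in KO and 8.08 times in mimic. Since miR-194-5p sums the output of chromosomes 1 and 19, its share from each could not be separated. The 3p arms of that pair went the opposite way, with miR-192-3p over miR-194-3p highest in KO at 1.10, against 0.863 in WT and 0.877 in mimic. For miR-194-3p over miR-215-3p the ratio was 0.412 in WT against 0.554 in KO and 0.441 in mimic.

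**Figure D4:**
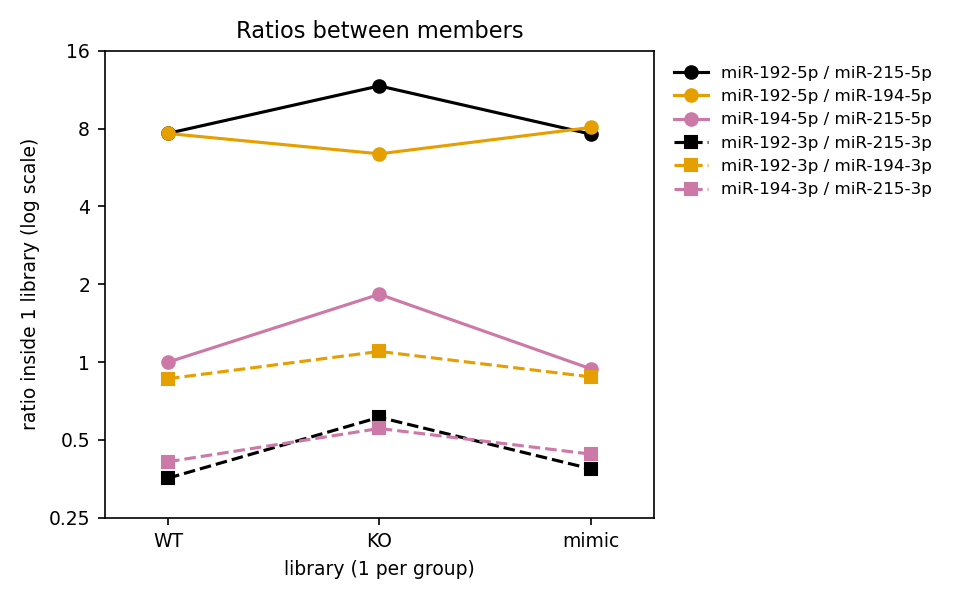
Ratios between members inside each library (log scale), for 5p arms (circles, solid lines) and 3p arms (squares, dashed lines). Both ratios of miR-192 to miR-215 peak in KO, at 11.7 for the 5p arms and 0.612 for the 3p arms, and the WT and mimic values nearly coincide.

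Because miR-192-5p and miR-215-5p carry the same seed, their sum gives the amount of strand able to pair with the same seed sites. It came to 741540 normalized reads for WT, 1174372 for KO and 1517357 for mimic, or 15.2%, 14.5% and 17.8% of the libraries. miR-192-5p made up 88.5% of that sum in WT against 92.1% in KO and 88.4% in mimic. miR-192-5p was thus most of the sum in each library. Its ratio to miR-215-5p was nonetheless higher in KO than in WT, by 0.61 on the log2 scale.

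The miRNAs whose pattern over the 3 libraries was most like that of a 5p member were sought among the 152 rows with a mean of at least 1000, by the distance between log2 values centred on their own mean. Nearest to miR-192-5p were miR-186-5p (distance 0.13), miR-148a-5p (0.14) and miR-3068-5p (0.14). The first of these was at 3876, 6184 and 8655 in WT, KO and mimic. Nearest to miR-194-5p were miR-191-5p (0.03), let-7f-5p (0.13) and miR-98-5p (0.22), with miR-191-5p at 21335, 42182 and 40269. Nearest to miR-215-5p were miR-22-3p, miR-27b-3p and miR-126a-5p, each at 0.16, and miR-22-3p was at 18186, 22016 and 43298. The distance from miR-192-5p was 0.25 to miR-194-5p and 0.50 to miR-215-5p, and from miR-194-5p to miR-215-5p it was 0.75. Each of the 5p members had non-members nearer to it than any other member, and each pattern rests on 3 points.

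The summed shares of the 3 hairpins and of the miR-200 family diverged in mimic, although the rows of that family did not all move alike. The miR-200 family with miR-141 and miR-429, which guards epithelial identity by repressing Zeb factors, summed to 14.6% of WT, 15.1% of KO and 9.17% of mimic. The members' sum was 1.18 times that of the family in WT, 1.10 times in KO and 2.17 times in mimic. Of its 9 rows, 4 were higher and 0 lower in KO than in WT, with a median of 0.99, and 0 were higher and 3 lower in mimic than in KO, with a median of -0.15. Over all rows 21.2% were higher and 9.64% lower in KO against WT, and 13.3% and 28.2% in mimic against KO, so the 3 lower rows of 9 were near the background. The most abundant row of the family, miR-200a-3p, had 380522 for WT, 754583 for KO and 498181 for mimic. miR-200b-3p, at 171853, 334093 and 139362, was likewise lower in mimic than in KO. miR-429-3p stood at 83919, 46991 and 74855 and miR-141-3p at 54818, 43461 and 51514, so for both KO was the low library, as it was for the members' 3p arms. miR-375-3p, a miRNA of endocrine and secretory epithelial cells, was at 93198, 115315 and 54757, with mimic the low library. miR-7a-5p of the same list was at 3110, 7580 and 7875, with WT the low library. That list took 2.0%, 1.52% and 0.747% of the libraries, a sum led by miR-375-3p.

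miRNAs of other cell types moved between the same libraries, and their part in the members' ratios was not tested. The members' sum was 1.45 times the muscle sum in WT, 1.27 times in KO and 0.751 times in mimic, where miR-143-3p alone reached 1655929. Between WT and KO the muscle sum joined large rows that moved in opposite directions. miR-143-3p went up from 294225 to 954512 normalized reads, whereas miR-145a-5p went down from 261621 to 83319. As deposited, of 8 muscle rows, 3 were higher and 2 lower in KO than in WT, and 6 were higher and 0 lower in mimic than in KO. Counts for the cell type lists were not repeated under other scalings, which can change them. The same shares over all rows were 21.2% higher and 9.64% lower in KO against WT, and 13.3% and 28.2% in mimic against KO. White blood cell miRNAs, 7 rows led by miR-142a-5p, took 0.941% of WT, 0.492% of KO and 0.755% of mimic. The low KO share was that of miR-142a-5p, at 31674 in WT and 14200 in KO, whereas miR-146a-5p was at 9351 and 20555. The other arm of the first hairpin, miR-142a-3p, was at 1587 in WT and 2753 in KO, so its arms moved in opposite directions. Of the 6 white blood cell rows that passed the filter, 1 was higher and 1 lower in KO than in WT, with a median of -0.05. The fibroblast list took 1.47%, 1.05% and 0.74%, and the endothelial miR-126a took 1.23%, 0.959% and 1.44%. Red blood cell miRNAs, led by miR-451a, held at most 0.0451%, in WT. The lists had rows at 0 in some library for 1 muscle, 1 white blood cell and 1 endocrine row, and in no other list.

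**Figure D5:**
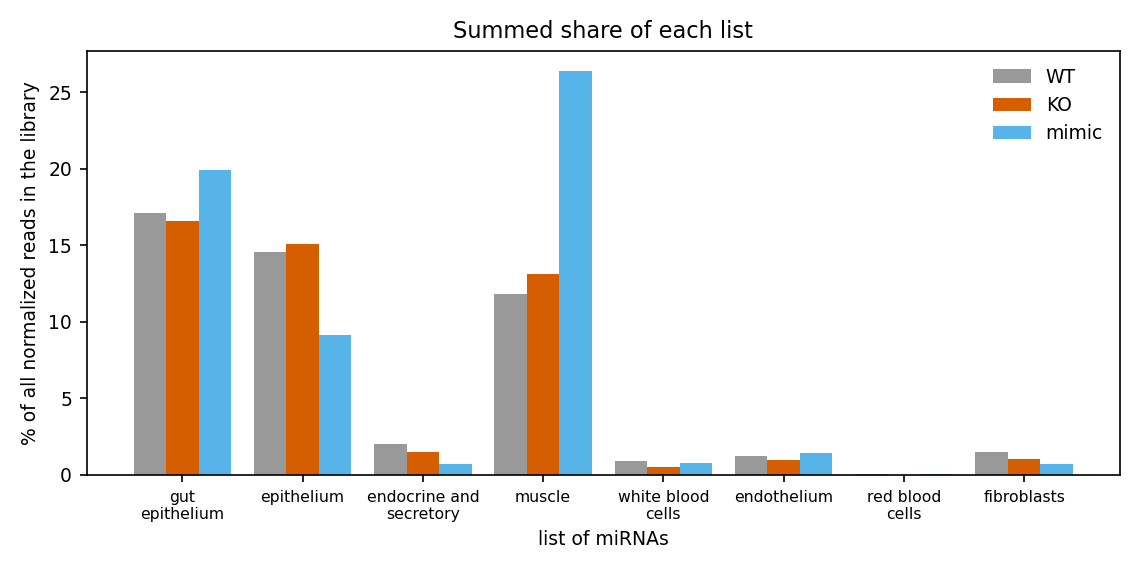
Percent of all normalized reads (y axis, from 0) taken by each list of miRNAs (x axis) in WT, KO and mimic, 1 library each. The gut epithelial list of miR-192, miR-194 and miR-215 stays between 16.6% and 19.9%, while in mimic the miR-200 list is at 9.17% and the muscle list at 26.4%.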

How the data were processed

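Small RNA from mouse colonic mucosa was sequenced single-end on an Illumina HiSeq after TruSeq small RNA preparation, per the labels' protocols, in 1 library each of WT, KO and mimic. The deposited values are a score: per the file headers, normalized miRNA reads, which the authors gave as whole numbers. Of the other unit, 2 further columns hold differences that the authors deposited, and a recomputed subtraction gave 0 mismatches. Per the submitters' processing notes, mm10 was the genome build. For the aligner, counter, miRNA reference and normalization, the method is not given in the sources used.

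Members and lists were chosen with earlier results of these data known. Rows with a mean below 10 were removed (56 of 471). Ratios were log2 after adding 1, and the limit was 2-fold. All member rows are named, with the 3 nearest patterns of each 5p arm and the most abundant row or further rows of the cell type lists. Names that occur more than once in the table were left out of the arm ratios. Simulated data with planted changes were used to check the counts.

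The value of 1 read was estimated after seeing the data, from values up to 150, as the step with most values within 0.5 of a multiple. It came to 1.117 (WT), 1.394 (KO) and 1.558 (mimic), with 99.5%, 98.1% and 96.8% of low values on a multiple, where 89.5%, 71.7% and 64.2% of whole numbers would be. Estimated reads are approximate, and intervals made from them (95%, exact binomial) cover counting error only. Loci were taken from GENCODE M21 and sequences from RefSeq, both GRCm38. Python 3.11.15, pandas 2.3.3, NumPy 2.4.6 and SciPy 1.17.1 were used.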

Additional observations from a re-analysis of the deposited data

How the results depend on the processing

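The scaling, the fold limit and the choice of arms each moved the members' counts or medians. With equal totals, the count of members at least 2-fold apart was 3 for KO against WT and 0 for mimic against KO, and with median-of-ratios factors it was 2 and 2, against 1 and 1 as deposited. Of all rows, equal totals put 7.23% higher and 34.0% lower in KO against WT, and 12.8% and 30.6% in mimic against KO. Median-of-ratios factors put 17.1% higher and 14.7% lower in KO against WT, and 18.6% and 24.1% in mimic against KO. The KO against WT median of -0.22 became -0.95 with equal totals, -0.37 with median-of-ratios factors and 0.72 with only the more abundant arm, the 5p arms. The mimic against KO median of 0.54 became 0.83 with median-of-ratios factors and 0.31 with only the more abundant arm. The mimic against WT median of 0.39 became -0.41 with equal totals, 0.53 with median-of-ratios factors and 1.03 with only the more abundant arm. Keeping only the more abundant arm left 3 member rows, the 5p arms. Of these 3, the number at least 2-fold apart was 0 for KO against WT and 0 for mimic against KO. It was 2 of 3 when mimic was compared with WT. A 1.5-fold limit on all 6 members gave 4 for KO against WT and 3 for mimic against KO. Shares over all rows were not computed for either setting, so these counts have no background. In mimic against WT the count of 2 stayed at 2 with equal totals, where the direction turned from higher to lower and different members were called, and was 3, all higher, with median-of-ratios factors. Single members that changed sign were miR-215-5p (-0.62 with equal totals, -0.04 with median-of-ratios factors) and miR-192-5p (-0.02 with equal totals) in KO against WT, and miR-194-5p in mimic against KO (0.26 with median-of-ratios factors). These moves follow from the constant added to every ratio, the arms left out or the lower limit itself. Pseudocounts of 0.1 and 10, no filter and a mean of at least 100 changed no count or median of the members. No paired analysis was possible because each group has 1 library.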

Other observations

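The estimated step of 1 read was larger in KO (1.394) and mimic (1.558) than in WT (1.117), although the estimated reads were also more numerous there (5830000 and 5460000 against 4360000). The normalization is not given. If the step is the factor that was applied, it adds to the gap between the column totals. On the log2 scale it would then add 0.32 to every KO against WT ratio and 0.48 to every mimic against WT ratio. The deposited 1.03 of miR-192-5p in mimic against WT would then hold both that factor and the difference in reads.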
